A study of Mus musculus with 10 samples.

Results

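Endothelial cells line every blood and lymphatic vessel, and the genes they switch on differ with the type of vessel. The 44 genes described here were picked by symbol as genes known from endothelium, with earlier results of these data known. All 44 were found among the 15790 genes of a deposited count table. They comprise 21 general endothelial genes of the cell surface, of cell junctions and of signalling, 6 transcription factors, 4 genes known from capillaries, 9 from veins and leukocyte adhesion, 1 from arteries and 3 from lymphatic vessels. As background, the thymic cortex is crossed by capillaries, while progenitors enter and mature T cells leave the organ through venules near the medulla. Entry of progenitors uses P-selectin and the adhesion receptors ICAM-1 and VCAM-1 on the vessel wall. Lymphatic endothelium is set apart from blood endothelium by the transcription factor PROX1, and sinusoidal endothelium shares some of the scavenger receptors that lymphatic endothelium carries.

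The RNA came from bulk sorts of thymic epithelial cells (TEC) of the mouse and was counted by MARS-seq, a method that reads the 3′ ends of transcripts. AR3_mut holds 3 libraries of the Foxn1 del AR3 mutant on C57BL/6 at 4.5 weeks of age. AR3_het holds 3 libraries of its heterozygous control with the same strain and age, so the control carries the allele in 1 copy. The nude group holds 4 libraries of nu/nu mice, labelled ICR and 5 weeks of age. Foxn1 is the transcription factor on which TEC depend, and nu is a loss-of-function allele of it. Strain and age change along with the nude genotype and cannot be told apart from it. The sources used here do not give the sort gate. They also do not say that each library of a group is a separate animal, so p-values measure the spread between libraries, which may be technical.

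Library totals ran from 1056066 counts in AR3_mut 3 to 4175851 in AR3_het 1. Foxn1 had 1844, 1046 and 1711 counts in AR3_het, 4, 2 and 2 in AR3_mut, and between 1 and 4 in the nude libraries. No library was a copy of another of its group (chi-square at least 4.29 times its degrees of freedom). CPM stands for counts per 1000000 of the TMM-adjusted library total. AR3_het 3 stood apart from the rest by 104 counts per 1000000 of the Y-linked gene Ddx3y, against at most 1.2 elsewhere, scaled here to plain totals. On the same scale it had 1.34 of the X-linked gene Xist, against 25.6 to 50.4 elsewhere. The labels give no sex, and the part of sex in the AR3_het values was not tested. Without AR3_het 3, 42, 41 and 33 of the 44 genes passed the test in the 3 comparisons given next.

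Almost all of the endothelial genes rose in AR3_mut and in nude against AR3_het, and most stood higher in AR3_mut than in nude. The summed share of the 44 genes was 0.113 to 0.143% of a library in AR3_het, 0.364 to 0.572% in nude and 1.29 to 1.51% in AR3_mut, without overlap between groups. In AR3_mut against AR3_het, 41 genes rose and 1, Vcam1, fell among the 43 that passed the low-count filter, where 21.2% of all 12912 genes tested rose and 20.6% fell (41.8% in either direction). Their median log2 fold change was 4.86, against -0.04 over all genes tested. In nude against AR3_het, 40 rose and 2 fell, Vcam1 and Madcam1, where 23.7% of all genes rose and 24.2% fell (47.9% in either direction), and the median of the 43 was 3.19. In AR3_mut against nude, 35 rose and 0 fell, where 7.6% of all genes rose and 3.71% fell (11.3% in either direction), and the median was 1.87. The threshold was an adjusted p of 0.05 in edgeR's quasi-likelihood test. Scaled to plain library totals, 2074 genes were higher and 3855 lower in AR3_mut and 2153 and 4842 in nude, against 2741 and 2661 and 3059 and 3123 with TMM, and 42 and 39 members were called.

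Read over the libraries and not the fit, all 3 AR3_mut libraries stood above all 3 AR3_het libraries for 41 of the 44 genes and below them for 1, against 26.1% and 28.9% of all genes tested. For nude against AR3_het these counts were 38 above and 2 below, against 25.5% and 28.3%. For AR3_mut against nude they were 37 above and 0 below, against 12% and 8.73%. Both comparisons with AR3_het use the same 3 control libraries, and a gene with few counts there entered the test through the groups where it was high, so these counts describe the list and do not add to each other. In bulk RNA, more endothelial cells in the sort and more of these transcripts per cell cannot be told apart.

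**Figure D1:**
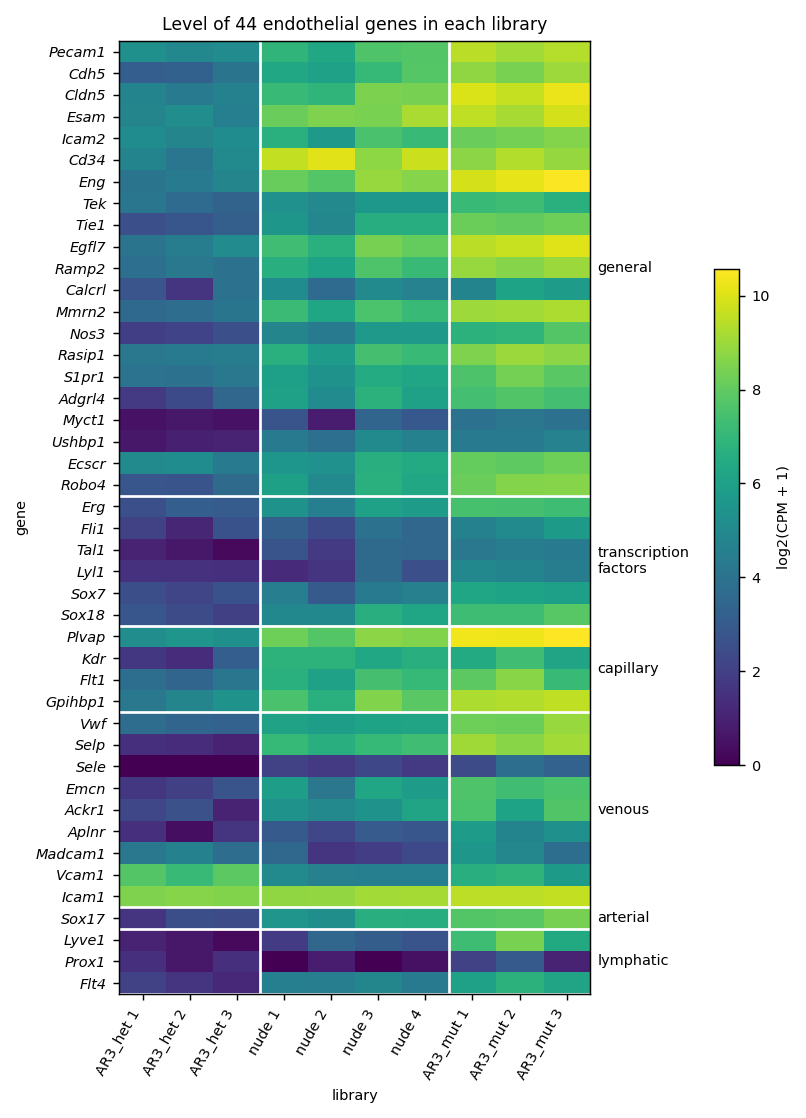
Level of each of the 44 genes (rows, grouped by vessel type) in each of the 10 libraries (columns), as log2(CPM + 1) in colour, with CPM scaled to TMM-adjusted library size. AR3_het is dark for most rows, nude is intermediate and AR3_mut is bright, while Vcam1 is brightest in AR3_het, Madcam1 is darkest in nude, Cd34 is brightest in nude and Icam1 is bright in all 3 groups.

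**Figure D2:**
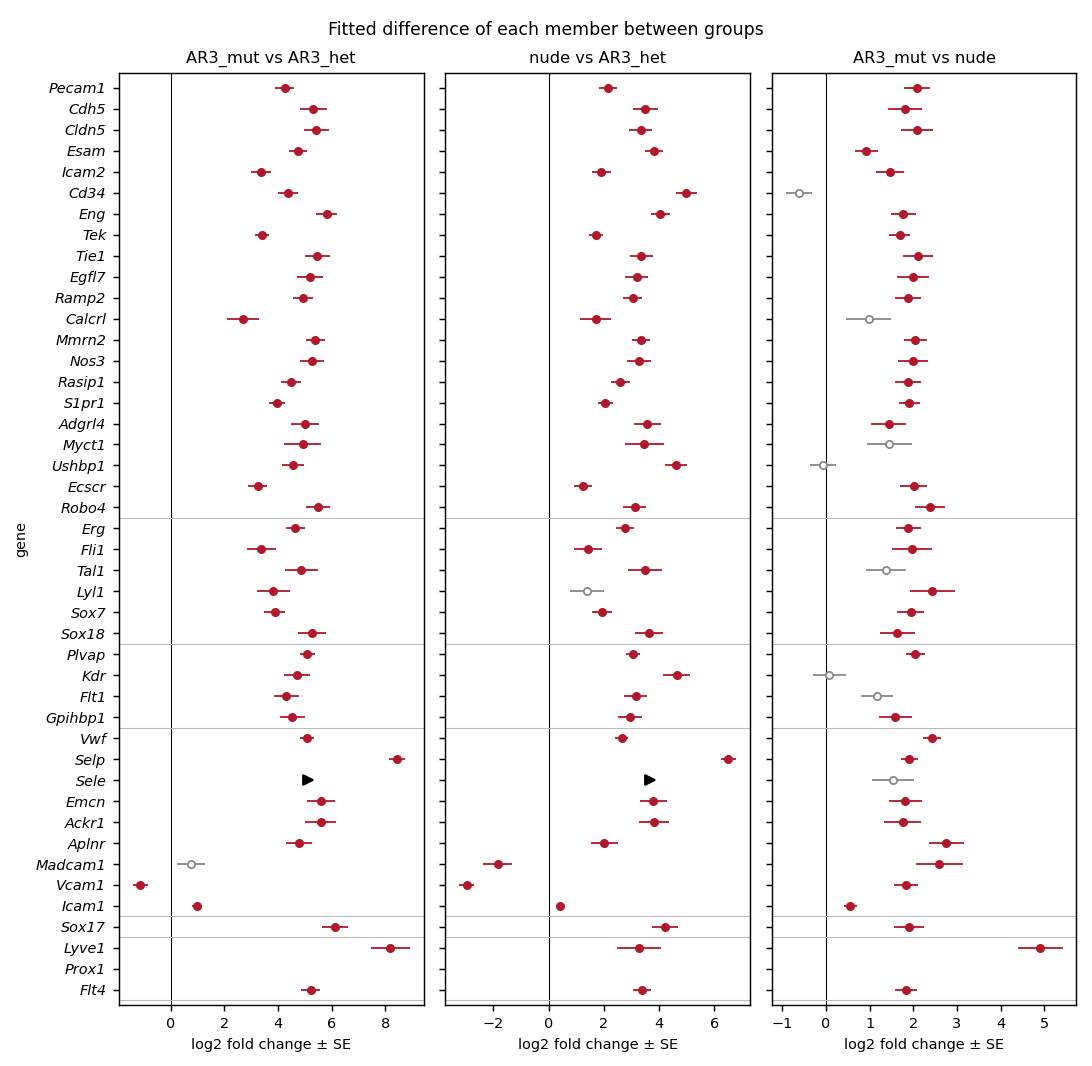
Fitted log2 fold change with its standard error for each member in the 3 comparisons, with filled points for an adjusted p under 0.05 and open points for the rest. The black triangle marks the lower bound for Sele, which had 0 counts in AR3_het, and Prox1 has no point because it did not pass the low-count filter. The points of AR3_mut against AR3_het have a median of 4.86, and those of AR3_mut against nude a median of 1.87.

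The 21 general genes rose in both groups, 21 of 21 in AR3_mut and 21 of 21 in nude against AR3_het. Over all genes tested, 21.2% rose in AR3_mut and 23.7% in nude. Eng, a co-receptor for ligands of the TGF-beta family, stood at 15.9, 19 and 27.4 CPM in the AR3_het libraries. It reached 275, 214, 484 and 393 CPM in nude and 937, 1141 and 1425 CPM in AR3_mut. The 3 groups of Eng did not overlap, with the order AR3_het, nude, AR3_mut. Its log2 fold change was 5.81 (SE 0.38, adjusted p = 8.14e-07) in AR3_mut and 4.04 (SE 0.34, adjusted p = 3.64e-06) in nude, and AR3_mut exceeded nude by 1.77 (SE 0.29, adjusted p = 0.00347). In AR3_mut, the changes of the 21 genes ran from 2.68 for Calcrl to 5.81 for Eng, and in nude from 1.23 for Ecscr to 4.99 for Cd34.

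The junction genes moved together. Cdh5, the VE-cadherin of adherens junctions, had means of 10.9 ± 4.30 CPM (SD, n = 3) in AR3_het, 124 ± 71.1 (n = 4) in nude and 436 ± 86.0 (n = 3) in AR3_mut. Its change was 5.31 (SE 0.50) in AR3_mut and 3.50 (SE 0.46) in nude. Cldn5, the claudin of endothelial tight junctions, changed by 5.42 and 3.34, and Pecam1, which joins neighbouring endothelial cells, by 4.24 and 2.16. Esam and Icam2, adhesion molecules of the same contacts, changed by 4.74 and 3.37 in AR3_mut and by 3.81 and 1.90 in nude. For each of these 5 genes, AR3_mut also exceeded nude, by 0.93 for Esam (adjusted p = 0.0418) to 2.08 for both Pecam1 (adjusted p = 0.00191) and Cldn5 (adjusted p = 0.00496).

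Receptors and signalling genes followed. Tek and Tie1, the receptor pair of the angiopoietin system, rose by 3.40 and 5.46 in AR3_mut and by 1.71 and 3.36 in nude. Robo4 rose by 5.50 and 3.11, S1pr1, a receptor for sphingosine 1-phosphate, by 3.96 and 2.05, and Nos3, the endothelial nitric oxide synthase, by 5.27 and 3.28. Ramp2 and Calcrl encode partners in the adrenomedullin receptor. Ramp2 rose by 4.91 and 3.04, and Calcrl by 2.68 and 1.70, with AR3_het libraries of Calcrl spread from 2.11 to 14.7 CPM. The secreted or matrix proteins Egfl7 and Mmrn2 rose by 5.19 and 5.39 in AR3_mut and by 3.19 and 3.34 in nude. Rasip1, an adaptor needed for vessel lumens, rose by 4.47 and 2.60, and the adhesion receptor gene Adgrl4 by 5.00 and 3.57. Ecscr and Myct1 rose by 3.24 and 4.92 in AR3_mut and by 1.23 and 3.47 in nude, and Ushbp1 by 4.54 and 4.61.

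Of the 21 general genes, 17 stood higher in AR3_mut than in nude, where 7.6% of all genes tested did, and 4 did not pass. Cd34, a sialomucin of endothelium that fibroblasts and progenitor cells also carry, was at 421, 639 and 479 CPM in AR3_mut and at 774, 1096, 434 and 851 CPM in nude. The groups overlapped only through nude 3, and the difference of -0.62 (SE 0.30) had an adjusted p of 0.213. Ushbp1 was at 18.7, 20.2 and 24.8 CPM in AR3_mut and at 20.2, 13.6, 31.4 and 23.7 CPM in nude, a difference of -0.07 (SE 0.29, adjusted p = 0.923) whose sign turned with the scaling to library totals (0.0074). Calcrl (0.98, adjusted p = 0.252) and Myct1 (1.45, adjusted p = 0.0923) were the other two. Nude 3, the nude library lowest in Cd34, was also the one lowest in the fibroblast gene Dcn, at 2088 CPM against 4712 to 5954 CPM in the other nude libraries. The part of fibroblast RNA in the Cd34 values was not tested.

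Within the general genes, single libraries decided a few calls. The nude call of Calcrl was lost without AR3_het 1 (adjusted p = 0.0993), AR3_het 2 (0.0799) or nude 1 (0.0650) and with library totals as the scale (0.0796). Without AR3_het 3, Calcrl rose by 3.48 in AR3_mut and 2.52 in nude, and Adgrl4 by 5.70 and 4.28. In AR3_mut against nude, the call of Esam was lost in 8 of 10 fits that left out 1 library (all but those without AR3_mut 2 or nude 4, adjusted p up to 0.138) and when only the groups compared were fitted (0.0691). The same comparison lost Adgrl4 in 7 of 10 (without any AR3_mut library, AR3_het 2, nude 1, nude 2 or nude 4, adjusted p up to 0.0921) and Icam2 without AR3_mut 3 (0.0504). It gained Cd34, lower in AR3_mut by -0.82 (adjusted p = 0.0448), and Myct1, higher by 1.81 (0.0356), without nude 3.

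All 6 transcription factors rose in AR3_mut, 5 of 6 rose in nude, and 5 of 6 were higher in AR3_mut than in nude. The matching shares of all genes tested were 21.2%, 23.7% and 7.6%. Erg, the ETS-family factor that maintains endothelial identity, stood at 4.95, 7.85 and 7.48 CPM in AR3_het, at 40.3, 22.6, 64.5 and 56.7 CPM in nude and at 177, 173 and 156 CPM in AR3_mut. No library of Erg crossed into a neighbouring group. The changes were 4.65 (SE 0.37, adjusted p = 3.03e-06) in AR3_mut and 2.76 (SE 0.34, adjusted p = 4.86e-05) in nude. The SoxF factors Sox18 and Sox7, which act in vessel formation, rose by 5.26 and 3.87 in AR3_mut and by 3.63 and 1.93 in nude. Fli1, a second ETS factor, rose by 3.38 in AR3_mut and 1.41 in nude (adjusted p = 0.0395).

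Tal1 and Lyl1, basic helix-loop-helix factors of endothelium and of blood cells, were sparse in AR3_het. Tal1 had 0.214 to 1.03 CPM there, while the nude libraries ran from 2.46 to 11.6 CPM and those of AR3_mut from 17.9 to 21.3 CPM, with changes of 4.86 and 3.48 against AR3_het. Lyl1 had 1.71 to 1.85 CPM in AR3_het, and in nude 1.44, 2.05, 11.6 and 4.89 CPM, of which nude 1 lay below the control libraries (1.38, SE 0.61, adjusted p = 0.0841). In AR3_mut it had 29.6, 26.5 and 20.8 CPM, all above every other library (3.82 against AR3_het). The pan-leukocyte gene Ptprc gave 433, 147 and 297 counts in AR3_het but 11, 2 and 0 in AR3_mut and 0 to 2 in nude. Of 8 haematopoietic markers tested, 4 were higher in AR3_mut than in nude, as Lyl1 was, against 7.6% of all genes tested. The part of blood-cell RNA in the Lyl1 and Tal1 values was not tested.

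Between AR3_mut and nude, Tal1 differed by 1.38 (adjusted p = 0.0757), past the threshold with DESeq2 (0.0372), with limma-voom (0.0378) and without nude 3 (0.0358). The nude call of Fli1 was lost without any of 6 libraries, AR3_mut 2, AR3_het 1, AR3_het 2, nude 1, nude 3 or nude 4 (adjusted p up to 0.124), with library totals (0.120), with limma-voom (0.0631) and when only the groups compared were fitted (0.0553). Without AR3_mut 3 or nude 1, the calls of Fli1 (0.0799 and 0.0579) and Sox18 (0.0755 and 0.0545) in AR3_mut against nude were lost. Tal1 rose by 5.47 and 4.08 without AR3_het 1. Without nude 3, Lyl1 was 3.21 higher in AR3_mut than in nude. In nude against AR3_het, Lyl1 passed the threshold without nude 1 (1.71, adjusted p = 0.0268) or nude 2 (1.64, adjusted p = 0.0457), and was 0.61 (adjusted p = 0.315) without nude 3.

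The 4 capillary genes rose in both groups, and 2 of 4, Plvap and Gpihbp1, were higher in AR3_mut than in nude. Among all genes tested, 21.2% rose in AR3_mut, 23.7% rose in nude, and 7.6% were higher in AR3_mut than in nude. Plvap, which forms the diaphragms of endothelial fenestrae, stood at 35.7, 45.0 and 38.3 CPM in AR3_het, at 296, 212, 420.4 and 376 CPM in nude and at 1291, 1240.1 and 1508 CPM in AR3_mut. The 3 groups of Plvap were fully separate. It rose by 5.09 (SE 0.28) in AR3_mut and by 3.04 (SE 0.25, adjusted p = 3.05e-06) in nude, and AR3_mut exceeded nude by 2.05 (SE 0.22, adjusted p = 0.000539). Gpihbp1, which carries lipoprotein lipase to the capillary lumen, rose by 4.54 and 2.95, with AR3_mut above nude by 1.58 (adjusted p = 0.0213, lost without AR3_mut 3 at 0.0603 or nude 1 at 0.0633).

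The receptors for vascular endothelial growth factor departed from that order. Kdr, the main signalling receptor, had 2.27, 1.51 and 7.91 CPM in AR3_het, 113, 112, 79.9 and 98.3 CPM in nude and 87.6, 159 and 71.4 CPM in AR3_mut. Both mutant groups lay far above AR3_het and overlapped each other. Kdr rose by 4.71 (SE 0.50, adjusted p = 2.28e-05) in AR3_mut and by 4.63 (SE 0.48, adjusted p = 1.58e-05) in nude, and the groups differed by 0.08 (SE 0.38, adjusted p = 0.940). Without AR3_het 3 the rises were 5.66 and 5.62, and without AR3_mut 2 the difference between the groups was -0.35. Flt1, a receptor that also acts as a trap for the ligand, rose by 4.31 and 3.15. Its AR3_mut libraries ran from 139.8 to 415 CPM and overlapped those of nude, 64.9 to 171 CPM (1.16, SE 0.37, adjusted p = 0.0659, past the threshold with DESeq2 at 0.0248 and without AR3_mut 3 at 0.0318 or nude 3 at 0.0267).

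Of the 9 venous and adhesion genes, 7 rose and 1 fell in AR3_mut, 7 rose and 2 fell in nude, and 8 of 9 were higher in AR3_mut than in nude. Over all genes tested, 21.2% rose and 20.6% fell in AR3_mut, 23.7% and 24.2% in nude, and 7.6% were higher in AR3_mut than in nude. Selp encodes P-selectin, which endothelium and platelets store in granules. It had 8, 5 and 5 counts in AR3_het, 371, 246, 241 and 393 counts in nude and 1361, 714 and 552 counts in AR3_mut. In CPM this was 1.07 to 1.65, 101 to 160.3 and 412 to 547, without overlap. Its rise of 6.51 in nude (SE 0.28, adjusted p = 4.83e-08) and of 8.42 in AR3_mut was the largest fitted for any member with counts in AR3_het. AR3_mut exceeded nude by 1.91 (SE 0.19, adjusted p = 0.000293).

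Sele, the E-selectin of activated endothelium, had 0 counts in every AR3_het library. It had 9, 6, 7 and 6 counts in nude and 11, 23 and 9 counts in AR3_mut. Against a floor of 3 counts over the control group, Sele was at least 34.7-fold higher in AR3_mut and at least 12.6-fold higher in nude. Sele differed between AR3_mut and nude by 1.53 (SE 0.48, adjusted p = 0.0729, past the threshold at 0.0431 without AR3_mut 1).

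Vwf, the von Willebrand factor of endothelial and platelet granules, had 8.97 to 12.8 CPM in AR3_het, from 59.96 up to 70.1 CPM across the nude libraries and 289 to 485 CPM in AR3_mut. It rose by 5.06 (SE 0.26, adjusted p = 2.25e-07) and 2.64 (SE 0.23, adjusted p = 4.75e-06), and its nude libraries were the most even of all members, with an SD of 6.97% of the mean. Emcn, a sialomucin of venous and capillary endothelium, rose by 5.60 and 3.78, and Ackr1, a chemokine-binding receptor of venules, by 5.58 and 3.83. Aplnr, the apelin receptor, rose by 4.76 and 2.01 and was 2.76 higher in AR3_mut than in nude (SE 0.40, adjusted p = 0.00198). The AR3_mut excess of Ackr1, 1.76 (adjusted p = 0.0217), was lost without AR3_mut 1 (0.0775), AR3_mut 3 (0.0760), nude 1 (0.0633) or nude 2 (0.0578).

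Selp, Vwf and Pecam1 are also platelet genes. The platelet markers listed for comparison were mixed in AR3_mut. Their sum was 30.3 to 47.6 CPM in AR3_het, 86.5 to 176 in AR3_mut and 36.7 to 65.0 in nude. Of 6 tested, Itga2b rose by 4.63, Gp5 fell by 1.99 (adjusted p = 0.0110, lost without AR3_mut 1 at 0.0652), and 4 did not pass. In that comparison 21.2% of all genes tested rose and 20.6% fell. Pf4, a platelet chemokine, was at 16.2 ± 5.19 CPM in AR3_het and 16.7 ± 3.31 CPM in AR3_mut (n = 3 each, adjusted p = 0.937). In nude, 4 of 6 fell and 1, Itga2b, rose, where 24.2% of all genes tested fell and 23.7% rose. The part of platelet RNA in the Selp, Vwf and Pecam1 values was not tested.

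Vcam1 and Madcam1 did not follow the other venous genes. Vcam1, which binds integrins of lymphocytes and is also made by stromal and epithelial cells, stood at 211, 142 and 235 CPM in AR3_het, at 97.4, 116 and 52.5 CPM in AR3_mut and at 32.0, 23.0, 22.6 and 22.4 CPM in nude. It was highest in AR3_het and lowest in nude, with no overlap. Vcam1 fell by 1.13 (SE 0.28, adjusted p = 0.00702) in AR3_mut and by 2.96 (SE 0.27, adjusted p = 6.40e-06) in nude, and was 1.83 higher in AR3_mut than in nude (SE 0.27, adjusted p = 0.00239).

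Madcam1, a ligand for lymphocyte homing known from mucosal venules, had 17.7, 23.9 and 12.6 CPM in AR3_het, 46.7, 28.8 and 12.9 CPM in AR3_mut and 10.4, 2.05, 2.75 and 4.08 CPM in nude. The AR3_mut and AR3_het libraries overlapped (0.76, SE 0.52, adjusted p = 0.266), and nude lay below both. Madcam1 fell by 1.84 in nude (SE 0.53, adjusted p = 0.0131, lost at 0.0510 without AR3_het 2), a fall of 2.58 without nude 1. It was 2.60 higher in AR3_mut than in nude (adjusted p = 0.0108), 3.33 without nude 1 and lost without AR3_mut 1 (0.0536).

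Icam1, which binds leukocyte integrins and is made by many cell types, stood at 370.3, 402 and 371 CPM in AR3_het, at 447, 466, 543 and 561 CPM in nude and at 735, 728 and 765 CPM in AR3_mut. The 3 groups did not overlap. Icam1 rose by 0.96 (SE 0.16, adjusted p = 0.000493) in AR3_mut and by 0.40 (SE 0.15, adjusted p = 0.0402) in nude. The nude call was lost in 6 of 10 fits that left out 1 library (AR3_mut 2, any AR3_het library, nude 3 or nude 4, adjusted p up to 0.162), with DESeq2 size factors (0.0672), when only the groups compared were fitted (0.0648) and with library totals, where the change was 0.04 (0.862). AR3_mut exceeded nude by 0.56 (adjusted p = 0.0302), a call lost in 7 of 10 such fits (any AR3_mut library, AR3_het 1, AR3_het 3, nude 1 or nude 2, adjusted p up to 0.0816) and when only the groups compared were fitted (0.0742).

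The sequences upstream of the genes were read from RefSeq promoter windows of GRCm38.p6, from 250 bases before to 50 bases after each start. Of the 44 genes, 25 matched an entry, with 31 windows. The ETS core AGGAAG, searched on both strands, was in 18 of 31 member windows (58.1%), from 17 of 25 genes, and in 35.4% of all 32851 windows. The GATA core AGATAA was in 16.1% of member windows and 11.2% of all, and the SOX core ACAATG in 6.45% and 12.6%. The AGGAAG matches overlapped those of the others in 0 member windows. A match is a description of these letters and not a site.

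Windows of 4 genes are printed 5′ to 3′ with the AGGAAG matches in capitals. Eng is shown as the general gene with the largest rise in AR3_mut, Selp and Sele as the selectins that were near or at 0 in AR3_het, and Madcam1 as the venule gene that fell in nude and passed no test in AR3_mut. The windows lie on the plus strand, at chr2:32646345-32646644 for Eng, chr1:164115014-164115313 for Selp, chr1:164047984-164048283 for Sele and chr10:79664309-79664608 for Madcam1.
Eng: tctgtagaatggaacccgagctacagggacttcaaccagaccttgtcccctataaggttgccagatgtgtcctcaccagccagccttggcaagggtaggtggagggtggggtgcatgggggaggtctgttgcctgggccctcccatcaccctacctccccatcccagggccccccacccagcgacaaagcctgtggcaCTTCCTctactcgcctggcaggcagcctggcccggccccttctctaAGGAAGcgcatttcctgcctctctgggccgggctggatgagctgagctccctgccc
Selp: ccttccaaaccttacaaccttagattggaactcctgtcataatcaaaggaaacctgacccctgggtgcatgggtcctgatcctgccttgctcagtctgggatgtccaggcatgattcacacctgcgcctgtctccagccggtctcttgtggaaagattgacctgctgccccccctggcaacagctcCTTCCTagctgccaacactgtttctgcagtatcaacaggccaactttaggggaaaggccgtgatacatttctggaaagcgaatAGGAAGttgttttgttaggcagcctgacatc
Sele: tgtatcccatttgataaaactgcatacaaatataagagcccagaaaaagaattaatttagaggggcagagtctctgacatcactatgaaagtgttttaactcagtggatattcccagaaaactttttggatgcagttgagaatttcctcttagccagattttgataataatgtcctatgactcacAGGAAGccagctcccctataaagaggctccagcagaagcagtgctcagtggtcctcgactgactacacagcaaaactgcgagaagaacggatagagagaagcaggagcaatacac
Madcam1: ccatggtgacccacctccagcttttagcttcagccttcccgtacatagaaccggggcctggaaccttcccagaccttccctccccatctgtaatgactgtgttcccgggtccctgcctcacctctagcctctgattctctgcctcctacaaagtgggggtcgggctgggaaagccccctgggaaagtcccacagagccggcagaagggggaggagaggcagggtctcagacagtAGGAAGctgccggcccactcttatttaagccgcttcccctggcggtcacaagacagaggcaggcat
Eng and Selp each hold 2 AGGAAG cores (one of them read as CTTCCT from the other strand), while Sele and Madcam1 hold 1 each.

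Sox17, the SoxF factor known from arterial endothelium and the single arterial member, had 2.06, 4.83 and 4.27 CPM in AR3_het. It had 44.3, 37.4, 99.2 and 94.2 CPM in nude and 210.0, 228 and 332 CPM in AR3_mut. The groups were fully separate, and nude 3 and nude 4 lay above nude 1 and nude 2. Sox17 rose by 6.11 (SE 0.49, adjusted p = 3.59e-06) in AR3_mut and 4.21 (SE 0.46, adjusted p = 2.06e-05) in nude, and AR3_mut exceeded nude by 1.90 (SE 0.35, adjusted p = 0.00700).

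The 3 lymphatic members split. Lyve1, a hyaluronan receptor of lymphatic and sinusoidal endothelium that some macrophages also carry, had 5, 2 and 1 counts in AR3_het and 7, 25, 14 and 14 counts in nude. In AR3_mut it had 398, 591 and 85 counts, or 155, 341 and 84.3 CPM, against at most 10.3 CPM in nude. The 3 AR3_mut libraries differed among themselves by more than for most members but all lay above every other library. Lyve1 rose by 8.19 (SE 0.72, adjusted p = 6.03e-06) in AR3_mut and by 3.28 (SE 0.80, adjusted p = 0.00531) in nude. AR3_mut exceeded nude by 4.91 (SE 0.51, adjusted p = 0.000437), where the median over the 43 members was 1.87. The changes in AR3_mut were 7.45 and 4.20 without AR3_mut 2 and 8.80 against AR3_het without AR3_het 1, and the change in nude was 3.90 without AR3_het 1.

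Flt4, the receptor for the lymphatic growth factor VEGF-C, which fenestrated blood endothelium also carries, had 1.28 to 3.09 CPM in AR3_het, from 20 up to 27.5 CPM across the nude libraries and 64.7 to 111 CPM in AR3_mut. Flt4 rose by 5.21 (SE 0.34, adjusted p = 8.05e-07) and 3.37 (SE 0.33, adjusted p = 8.40e-06), close to the medians of the list. Prox1, the defining factor of lymphatic endothelium, had few counts in every library and did not pass the low-count filter. It had 8, 2 and 8 counts in AR3_het, 8, 12 and 1 counts in AR3_mut and 0, 2, 0 and 1 counts in nude. The AR3_mut and AR3_het ranges, 0.991 to 6.92 and 0.604 to 1.71 CPM, overlapped. From pooled counts, the log2 ratio of AR3_mut to nude was 3.64, with a 95% counting interval of 1.90 to 6.03, which covers counting error only.

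Of the other lymphatic and sinusoidal genes listed for comparison, 9 of 11 tested rose in AR3_mut and 7 in nude. In AR3_mut against nude, 7 were higher and 0 lower. Over all genes tested, these shares were 21.2%, 23.7% and 7.6%, with 3.71% lower in the last comparison. Stab1, a scavenger receptor of sinusoidal and lymphatic endothelium, rose from 2.58 ± 0.123 CPM (SD, n = 3) in AR3_het to 22.1 ± 4.30 (n = 4) in nude and 125 ± 26.9 (n = 3) in AR3_mut (5.58 and 3.08, adjusted p = 1.52e-07 and 3.06e-06). Stab2, its paralogue of sinusoids, was named after its values were seen. It had 60.8, 149.9 and 92.2 CPM in AR3_mut, 3.60, 7.39, 3.86 and 1.63 CPM in nude and 2.89, 0.302 and 2.35 CPM in AR3_het, and AR3_mut exceeded nude by 4.60 (SE 0.50, adjusted p = 0.000539). Mmrn1, also named after its values were seen and known from lymphatic endothelium and platelets, had 0 counts in all AR3_mut and AR3_het libraries and 10, 20, 2 and 0 counts in nude. Klhl4 and Reln of that list, also named after their values were seen, were 2.44 and 2.14 higher in AR3_mut than in nude. Their adjusted p of 0.0119 and 0.0491 rose to 0.0521 and 0.221 without AR3_mut 2. Pdpn, the podoplanin of lymphatic endothelium, epithelium and fibroblasts, rose by 1.59 in AR3_mut (adjusted p = 0.0174, lost without AR3_mut 2 at 0.0982, AR3_het 1 at 0.0779 or AR3_het 2 at 0.0794) and by 3.05 in nude. Nrp2, a VEGF-C co-receptor, rose by 2.52 and 0.88, the second lost with library totals (adjusted p = 0.112), and Fxyd6 did not pass in either.

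**Figure D3:**
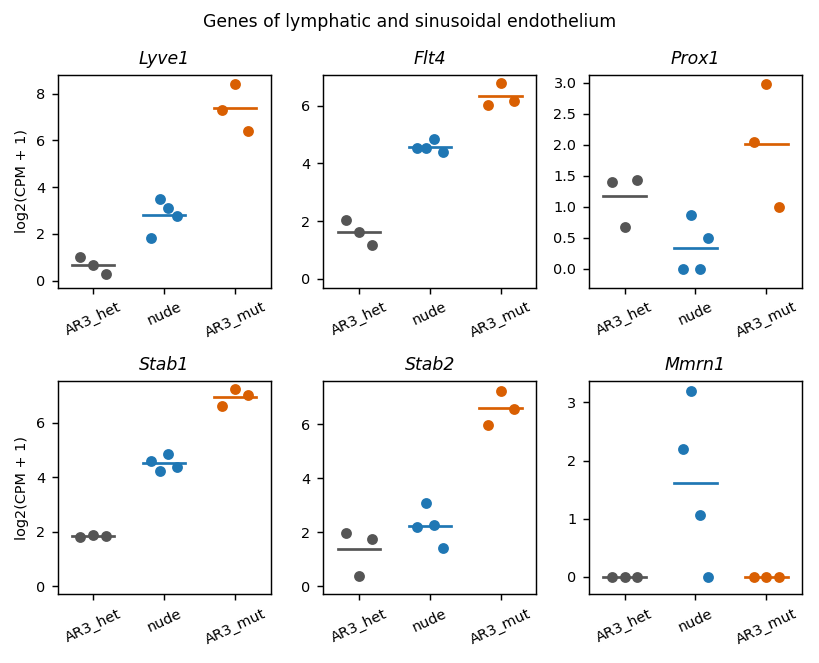
Levels of 6 genes of lymphatic and sinusoidal endothelium as log2(CPM + 1), 1 point per library, with a bar at each group's mean. Lyve1, Stab1 and Stab2 stand apart in AR3_mut, Prox1 overlaps between AR3_mut and AR3_het, and Mmrn1 has counts in nude libraries only.

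A further fit asked which vessel-type genes differed once the counts of the 21 general genes were made equal. The 21 include Cd34, which fibroblasts also carry, so this scale may hold RNA of other cells. In this fit, library size was replaced by the summed counts of the 21 general genes, and 16 of the 17 capillary, venous, arterial and lymphatic members were tested. On that scale, nearly every gene of the table fell in both groups, 95.4% in AR3_mut and 91.3% in nude against AR3_het, while 0.279% and 1.98% rose (95.7% and 93.3% in either direction). The members that rose in AR3_mut were Selp, Sox17, Lyve1 and Sele, and those that rose in nude were Selp, Sox17, Kdr and Sele. Icam1, Vcam1 and Madcam1 fell in both, as did nearly all other genes.

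Per 1000 counts of the general genes, Selp had 5.12, 4.86 and 2.87 counts in AR3_het, 49.8, 39.8, 36.0 and 40.3 in nude and 65.2, 48.7 and 54.6 in AR3_mut. Both mutant groups lay far above the control, and they overlapped each other through AR3_mut 2 and nude 1. Selp rose by 3.74 (SE 0.36, adjusted p = 9.75e-09) in AR3_mut and 3.30 (SE 0.35, adjusted p = 5.10e-08) in nude on this scale, and AR3_mut against nude gave 0.44 (SE 0.25, adjusted p = 0.120). Sox17 had 6.39, 15.6 and 11.5 in AR3_het, 25.8, 27.0 and 33.1 in AR3_mut and 16.5, 14.7, 26.9 and 23.7 in nude, where nude 2 lay below AR3_het 2. It rose by 1.39 (SE 0.38, adjusted p = 0.00185) in AR3_mut and by 0.91 (SE 0.36, adjusted p = 0.0243) in nude, the second lost without AR3_het 1 (0.62, adjusted p = 0.151) or nude 3 (0.75, adjusted p = 0.0639).

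Lyve1 had 3.20, 1.95 and 0.575 in AR3_het, 0.939, 4.04, 2.09 and 1.43 in nude and 19.1, 40.3 and 8.4 in AR3_mut. Its AR3_mut libraries stood alone, and nude overlapped AR3_het. On this scale Lyve1 rose by 3.59 (SE 0.77, adjusted p = 0.000314) in AR3_mut. The value in nude was 0.16 (adjusted p = 0.857) and ran from -0.35 without AR3_het 3 to 0.90 without AR3_het 1, and AR3_mut exceeded nude by 3.43 (SE 0.57, adjusted p = 0.000123). Without AR3_mut 2 these AR3_mut values were 2.87 and 2.71, and without AR3_het 1 the first was 4.33. Sele passed in both groups, but against a floor of 3 counts the bound was only at least 1.36-fold higher in AR3_mut and at least 1.34-fold higher in nude, and the nude call was lost without AR3_het 1 (adjusted p = 0.0519) or AR3_het 3 (0.0539).

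Relative to the general genes, Kdr stood higher in nude than in AR3_mut. It had 42.3, 44, 21.7 and 24.7 per 1000 in nude, 10.8, 18.8 and 7.12 in AR3_mut and 7.03, 4.86 and 21.3 in AR3_het. Each nude library lay above each AR3_mut library. Kdr rose by 1.52 in nude against AR3_het (SE 0.49, adjusted p = 0.00828, 2.44 without AR3_het 3), and AR3_mut fell below nude by -1.43 (SE 0.44, adjusted p = 0.00879), where 75.3% of all genes fell and 1.42% rose (76.7% in either direction). Icam1 also fell in that comparison, by 0.92 (SE 0.23, adjusted p = 0.00183). Madcam1, at 1.12 there (adjusted p = 0.100), passed as higher in AR3_mut without AR3_mut 3 (1.49, adjusted p = 0.0299) or nude 1 (2.01, adjusted p = 0.00396), and its fall in nude was -5.95 without nude 1.

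In the same comparison Lyve1, Plvap, Vwf and Aplnr rose. Plvap had 159, 147 and 150.3 per 1000 in AR3_mut and 110.3, 83.5, 114 and 94.4 in nude (0.60, SE 0.23, adjusted p = 0.0231), and Vwf 36.5, 34.3 and 48.3 against 24.8, 23.6, 18.8 and 17.6 (0.90, SE 0.27, adjusted p = 0.00587). Aplnr gave 1.29 (SE 0.48, adjusted p = 0.0200). Without AR3_mut 1 the calls of Plvap (0.56, adjusted p = 0.0705) and Aplnr (0.89, adjusted p = 0.144) were lost. The 3 calls of Plvap, Vwf and Aplnr rest on the choice of reference genes. With 5 of the general genes as the reference, Plvap gave 0.28 (adjusted p = 0.451), Vwf 0.55 (0.187) and Aplnr 0.95 (0.117). With 19, leaving out Cd34 and Esam, a set chosen after their high nude values were seen, they gave 0.08 (0.869), 0.33 (0.472) and 0.79 (0.194). A few calls appeared with a library left out. In AR3_mut against AR3_het, Emcn (0.93, adjusted p = 0.0502) passed without AR3_het 3, nude 2 or nude 3, Ackr1 (0.82, adjusted p = 0.136) passed without AR3_mut 2 or AR3_het 2, and Flt1 (-0.35, adjusted p = 0.378) passed as lower without AR3_mut 2. In nude against AR3_het, Vwf (-0.59, adjusted p = 0.0579) passed as lower without AR3_het 3 or nude 1, and Aplnr (-1.15, adjusted p = 0.0611) without AR3_het 2 or nude 1. With 5 reference genes, Lyve1 (3.16), Kdr (-1.76) and Icam1 (-1.26) passed in the same direction as before. With 19 they passed too, at 2.81, -2.06 and -1.50, so the size of these differences moved with the reference. In nude against AR3_het, the same members passed with 19 as with 21. Kdr gave 2.14 with 19 and 1.52 with 21, Sox17 1.35 and 0.91, and Icam1 -2.29 and -2.84.

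**Figure D4:**
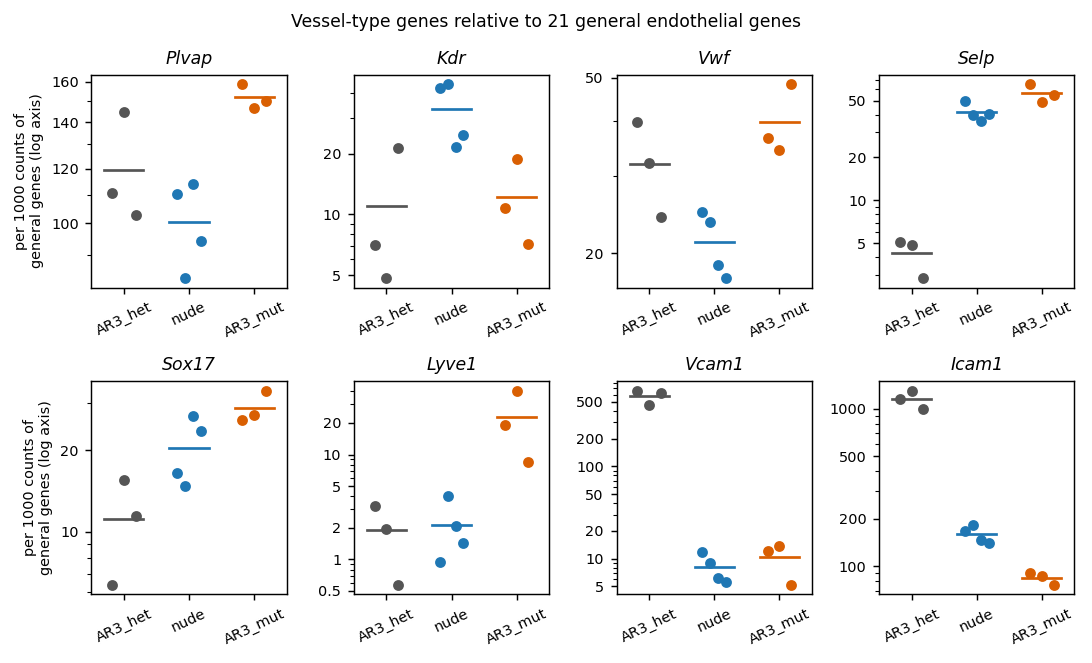
Counts of 8 vessel-type genes per 1000 counts of the 21 general endothelial genes in each library, on log axes, with a bar at each group's mean. Selp is higher in both mutant groups than in AR3_het. Sox17 is higher in both by its means, with overlap between nude and AR3_het. Lyve1 is higher in AR3_mut, Kdr in nude, and Vcam1 and Icam1 are highest in AR3_het, with means of 582 and 1147 per 1000.

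Other genes of each vessel type were read from lists that do not overlap the 44, naming the most abundant of each. Earlier results of these data were known when the lists were chosen, as for the 44. Beside the counts of these lists, 21.2% of all genes tested rose and 20.6% fell in AR3_mut, and 23.7% and 24.2% in nude. Of the other general genes, 13 of 13 tested rose in AR3_mut and 12 of 13 in nude. Cav1, the coat protein of caveolae, rose by 5.01 and 4.95, and Tm4sf1 by 4.96 and 4.48. AR3_mut differed from nude by 0.07 for Cav1 (adjusted p = 0.900) and 0.48 for Tm4sf1 (adjusted p = 0.202). Cd93 and Ctla2a rose by 5.12 and 5.09 in AR3_mut and by 3.17 and 2.87 in nude, and without AR3_het 3 by 5.87 and 5.75, and 3.94 and 3.55.

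Of the other capillary genes, 15 of 17 rose in AR3_mut and 12 in nude. Aqp1, a water channel, rose by 4.96 and 3.93, Fabp4, a fatty acid carrier of capillaries and fat cells, by 3.77 and 2.06, and Cd36, a fatty acid receptor, by 5.06 and 3.78 (6.24 and 4.98 without AR3_het 3). Rgcc did not pass in either, at 252 ± 28.5 CPM in AR3_het and 489 ± 77.6 CPM in AR3_mut (n = 3 each, adjusted p = 0.232). Of the other venous genes, 7 of 11 rose and 1 fell in AR3_mut, and 8 rose and 2 fell in nude. Lrg1, a secreted glycoprotein of venules, rose by 6.51 and 4.44, and Procr, the protein C receptor, by 5.12 and 4.94. Ptgs1 passed in nude only (1.23, adjusted p = 0.0161, lost without AR3_het 2 at 0.0586, AR3_het 3 at 0.0815 or with library totals at 0.0612).

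The arterial list was mixed, with 11 of 15 higher and 2 lower in AR3_mut and 8 higher and 3 lower in nude. Gja4, a connexin of arterial endothelium, rose by 2.32 in AR3_mut and gave 1.17 in nude (adjusted p = 0.0511). Clu rose by 1.59 and 1.09. Cxcl12, a chemokine of arteries that TEC also make, stood at 1548 ± 54.8 CPM in AR3_het, 472 ± 25.4 CPM in AR3_mut and 199 ± 76.7 CPM in nude and fell by 1.71 and 2.96. Hey1, a Notch target, rose by 0.97 in AR3_mut (adjusted p = 0.0127, lost without AR3_het 1 at 0.0566 or with library totals at 0.0635) and gave -0.56 in nude (adjusted p = 0.0897).

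Genes of high endothelial venules, the vessels through which lymphocytes enter lymph nodes, rose in 7 of 7 cases in AR3_mut and 5 of 7 in nude. Glycam1, a mucin ligand for L-selectin that glands also make, had 9, 4 and 7 counts in AR3_het. It had 13172, 9617 and 299 counts in AR3_mut and 1308, 24, 22 and 3593 in nude, so libraries of 1 group differed by over an order of magnitude. Its AR3_mut call (11.17, SE 2.51, adjusted p = 0.00622) was lost with limma-voom (0.0879). Its nude call (8.27, SE 2.27, adjusted p = 0.0143) was lost with limma-voom (0.283) and without AR3_het 1 (0.0547), AR3_het 2 (0.0583) or AR3_het 3 (0.0599), and was 6.70 without nude 4. Podxl, a sialomucin, rose by 5.42 and 4.37, and Enpp2, the enzyme that makes lysophosphatidic acid, by 3.58 (2.84 without AR3_mut 2) and 3.81. St3gal6 rose by 0.66 in AR3_mut at an adjusted p of 0.0450, which was lost in 7 of 10 fits that left out 1 library (all but AR3_mut 1, AR3_het 3 and nude 3, up to 0.190) and in 6 other settings (up to 0.298).

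Markers of other cells also differed between the groups, some lists up and some down. Against AR3_het, 21.2% of all genes tested rose and 20.6% fell in AR3_mut, and 23.7% rose and 24.2% fell in nude. Fibroblast markers rose in 9 of 9 cases in both groups, and their sum went from 142 to 249 CPM in AR3_het to 2897 to 6121 in AR3_mut and 4669 to 13928 in nude. Pericyte and smooth muscle markers, from the mural cells that wrap vessels, rose in 10 of 10 cases in AR3_mut and 6 of 10 in nude, with sums of 402 to 409.9 CPM in AR3_het, 2151 to 2884 in AR3_mut and 404 to 1299.7 in nude. Epithelial markers fell in 4 of 10 cases in each group, with sums of 7444 to 11602 CPM in AR3_het, 1963 to 5424 in AR3_mut and 4737 to 7306 in nude, so epithelial transcripts were present in every library. Haematopoietic markers fell in 8 of 8 cases in both, with sums of 1025 to 1591 CPM in AR3_het, 19.8 to 109 in AR3_mut and 4.52 to 13.0 in nude, and Vav1 had 0 counts in both mutant groups. Between AR3_mut and nude, 6 of 10 pericyte and smooth muscle markers and 4 of 8 haematopoietic markers were higher in AR3_mut, while 1 of 9 fibroblast and 1 of 10 epithelial markers were lower. In that comparison 7.6% of all genes tested were higher and 3.71% lower. Of 7 erythroid markers, 1, Alas2, was in the table, and it rose by 3.11 and 2.79. The part of these cells in the endothelial values was not tested, and for each mutant group the amount of endothelial, fibroblast and mural RNA cannot be told apart from the genotype.

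**Figure D5:**
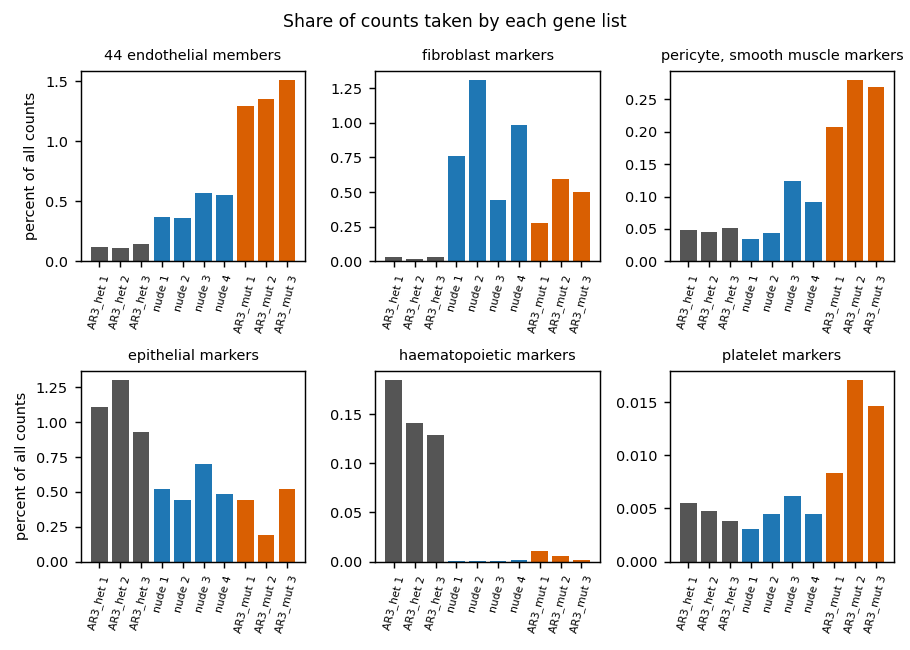
Share of all counts, in percent, taken in each library by the 44 endothelial genes and by 5 marker lists of other cells, with bars starting at 0. The endothelial share is highest in AR3_mut at 1.29 to 1.51%, the fibroblast share is highest in nude, and the epithelial and haematopoietic shares are highest in AR3_het.

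Among the nude libraries, many of the endothelial genes shared an order. Nude 3 and nude 4 both lay above nude 1 and nude 2 for 29 of the 44 genes and below both for 2, Kdr and Vcam1. Nude 2 was the lowest of the 4 for 33. The share of all genes tested with these orders was not computed, so these counts describe the list alone. The median SD over the members was 42.2% of the mean in nude, 28.6% in AR3_het and 20.04% in AR3_mut. Within AR3_mut, library 2 was the highest for 15 genes, among them Lyve1, Prox1, Flt4, Kdr and Flt1, while library 3 was the highest for 22, among them Plvap, Vwf, Selp and Sox17. Replicates have no order and the labels name no batch, so these are values of single libraries.

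Counting rules limit a few members. In GENCODE M21, the last 1000 bases of Eng, Egfl7, Nos3 and Lyl1 overlap an annotated gene on the opposite strand that is in the count table (Fpgs, Agpat2, Atg9b and Nfix), and those of Ramp2 overlap Vps25 on the same strand. The sources used here do not say whether the counting used strand, so reads of these 5 genes and their neighbours may have been shared.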

How the data were processed

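Sorted TEC RNA of 10 libraries was counted by MARS-seq. The values used are raw counts per gene as deposited by the authors, whole numbers in 1 column per library, and 20 further per-library columns of the table were not used. Per the submitters' processing notes, the tools were STAR 2.4.2a, HTSeq, DESeq2, cutadapt and bcl2fastq, with mm10 as the build and no roles given, and whether molecular identifiers were collapsed is not stated there. From the counts, genes were filtered (filterByExpr, minimum count 10, minimum total 15), scaled by TMM and tested in 1 fit of all 10 libraries with edgeR's quasi-likelihood test (edgeR 4.0.16, R 4.3.3), with Benjamini-Hochberg adjustment over all 12912 genes tested and a threshold of 0.05. Standard errors are the log2 fold change over the square root of F. CPM values use the same scaling. With 3 counts as the floor, the limit was 0.718 to 2.84 per 1000000 of plain library totals, depending on the library, for counting error only. A second fit replaced library size by the summed counts of the 21 general genes. Alternatives used limma 3.58.1, DESeq2 1.42.0, other scalings, no filter, a replicate block, other reference genes and 1 library left out. The fit was tried on simulated counts in which far fewer genes were changed than were called here. That trial therefore does not show how the scaling behaves under shifts as broad as these. All 44 members and up to 4 other genes per list (highest mean CPM) are named, except 1 gene that is not reported here, and other names are said to be chosen after their values were seen, besides the marker genes given beside a result. The members and lists were chosen with earlier results of these data known. Promoter windows come from RefSeq (GRCm38.p6), and gene positions from GENCODE M21.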

Additional observations from a re-analysis of the deposited data

Results flagged for a closer look

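Vcam1 in nude 1, at 32.0 CPM, stood apart from the other nude libraries, which ran from 22.4 to 23.0 CPM. The gap was 0.940 of the group's range, above Dixon's critical value for 4 samples. Chance flags about 1 in 20 groups, and nude 1 was also the highest nude library for Madcam1, Kdr and Calcrl.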

How the results depend on the processing

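In AR3_mut against AR3_het, all 42 calls among the members held under every alternative run, in nude against AR3_het between 38 and 43 members were called, and in AR3_mut against nude between 28 and 38. Over all genes, the count called in AR3_mut against nude was 1460. It was 952 when only the groups compared were fitted and 948 with the replicate block, between 883 (without nude 1) and 1993 (without nude 3) with 1 library left out, and 1987 with DESeq2, and the cause was not tested. Deviations of same-numbered libraries correlated between -0.32 and 0.16. With 3 or 4 libraries per group, these values cannot exclude a pairing by replicate number, and the main fit assumed none. The replicate block ended the nude calls of Ecscr (adjusted p = 0.0547) and Icam1 (0.35, adjusted p = 0.166) and the AR3_mut call of Icam1 against nude (0.62, adjusted p = 0.0811). At equal general endothelial counts, 6 vessel-type members were called in AR3_mut against nude, 3 with either 5 or 19 reference genes, the second set added after the data were seen, and 4 to 7 with 1 library left out. The difference of Ushbp1 between AR3_mut and nude, -0.07, turned to 0.0074 with library totals and 0.029 with the block, and ran from -0.25 to 0.13 with 1 library left out. That of Kdr, 0.08, ran from -0.35 to 0.28. Library totals in place of TMM shifted the median of all genes by -0.29 in AR3_mut and -0.37 in nude against AR3_het. Depth limits members such as Sele, Prox1, Tal1, Lyl1, Lyve1, Selp and Aplnr in AR3_het, where counts are few.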
